A study of Drosophila melanogaster with 10 samples.

Results

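Larval eye-antenna discs that overexpressed the Notch ligand Delta were compared with discs that expressed GFP. The arrays were chosen by genotype: 2 arrays of ey-Gal4, UAS-Delta/UAS-GFP discs and 2 of ey-Gal4/UAS-GFP discs, 4 of the 10 arrays in the series. Both genotypes therefore carried the ey-Gal4 driver and UAS-GFP, and by their labels they differed in the UAS-Delta transgene. Whether the fly stocks differed in other ways was not tested. The other arrays, 2 each, came from ey-Gal4/UAS-COX7a-RNAi (v106661) discs, from discs with that hairpin opposite the ey-Gal4, UAS-Delta chromosome, and from ey-Gal4/UAS-Notch[intra2] discs, here called Notch intra. COX7a encodes a subunit of mitochondrial complex IV, and Notch intra is an intracellular form of the receptor that signals without ligand. All discs were of early third-instar larvae (L3) of Drosophila melanogaster, 96 h after an egg laying of 2 to 3 h. Each sample pooled 20 to 30 discs, so no value belongs to a single animal, and the series design calls the 2 samples of a genotype biological replicates. The driver takes its name from eyeless, a gene of the eye primordium, and the whole disc was measured, so disc cells with and without driver activity were mixed. In such bulk samples fewer cells of a type and less RNA per cell cannot be told apart.

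Delta is a transmembrane protein that binds the receptor Notch on a neighbouring cell. Binding leads to cleavage of Notch, and the freed intracellular domain enters the nucleus and turns on genes with the DNA-binding protein Su(H), first among them the Enhancer of split (E(spl)) genes, many of which encode repressors. In the same cell Delta can also hold Notch inactive, a process known as cis-inhibition. In the eye disc Notch is activated at the border of dorsal and ventral cells, where it drives growth of the disc through eyg and the JAK/STAT ligand gene upd1, and it later limits how many cells become photoreceptors.

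The arrays carried 3′ expression probe sets, and the deposited values are log2 intensities. One probe set stood for each gene, and 8702 of 11982 genes passed an intensity floor of 4.66 log2 units. Between 8308 and 8491 genes lay above that floor on an array. Across genes the GFP arrays correlated with each other at a Pearson's r of 0.9965 and the Delta arrays at 0.9966, against 0.9928 to 0.994 between the genotypes. Changes below are log2 differences ± SE from limma with 2 arrays per genotype, and a gene counts as called where the p adjusted over all 8702 genes by Benjamini-Hochberg was under 0.05. All 6 markers of the eye-antenna disc (ey, toy, so, eya, Dll and eyg) lay above the floor on the 4 Delta and GFP arrays.

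Delta mRNA itself stood at 11.20 and 11.16 log2 units on the GFP arrays and at 13.06 and 13.22 on the Delta arrays. The groups were far apart, and the change was 1.96 ± 0.15, or 3.89-fold (limma adjusted p = 0.000376). With COX7a RNAi alone the values were 11.10 and 11.23, close to GFP, and with Delta and COX7a RNAi together they were 13.26 and 12.72. Notch intra discs had 11.35 and 11.46. Only the 4 arrays with the UAS-Delta transgene were high, as their labels say. A second Delta probe set rose by 0.58, less than the main one, and which transcripts each probe set reads was not tested. Serrate (Ser), the other Notch ligand of the fly, and the Notch gene itself were not analysed here.

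With Delta, 207 genes were called, 2.38% of those tested. Of these 117 rose (1.34%) and 90 fell (1.03%), and the median change of all 8702 genes was 0.02. Most changes were small: 27 genes rose and 24 fell at least 2-fold, 65 changed between 1.5 and 2-fold, and 91 by less than 1.5-fold. The median change was 0.61 among genes that rose and -0.70 among those that fell. On all 207 the Delta and GFP arrays did not overlap, which also held for 52.3% of all genes. The GFP mean of 8 called genes and the Delta mean of 5 lay at or under the floor, so the size of those changes is uncertain. With 2 arrays a genotype the count depended on single arrays. It was 74 without GFP replicate 1, 80 without GFP replicate 2, 90 without Delta replicate 1 and 110 without Delta replicate 2, and 61 of the 207 genes were called in each of these 4 fits.

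The E(spl) genes stood higher with Delta, and 2 of the 8 tested passed the test. E(spl)m3-HLH, which encodes a basic helix-loop-helix repressor, read 11.33 and 11.44 in GFP and 12.01 and 12.05 with Delta, and rose by 0.65 ± 0.06 (limma adjusted p = 0.00094), or 1.57-fold. E(spl)m2-BFM, a member of the Bearded family of small Notch inhibitors, read 10.60 and 10.45 in GFP and 11.49 and 11.56 with Delta, and rose by 1.00 ± 0.17 (adjusted p = 0.023). The groups did not overlap for either gene. The m2 call was lost when any 1 of the 4 arrays was left out, with an adjusted p of up to 0.163, while the m3 call was kept in all 4 such fits (up to 0.0121).

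The other 6 E(spl) genes did not pass. E(spl)m7-HLH read 8.80 and 9.07 in GFP against 9.84 and 9.89 with Delta (change 0.94 ± 0.29, limma adjusted p = 0.171), and E(spl)m4-BFM 11.29 and 11.45 against 12.13 and 12.30 (0.84 ± 0.27, adjusted p = 0.182). For E(spl)m5-HLH, E(spl)malpha-BFM, E(spl)mbeta-HLH and E(spl)mdelta-HLH the changes lay between 0.59 and 0.68. Over the 8 genes the changes ran from 0.59 to 1.00 with a median of 0.66, beside 0.02 for all genes, and the arrays of the 2 genotypes did not overlap for any of the 8, as for 52.3% of all genes. The COX7a RNAi replicates, which enter the pooled spread behind these SEs, differed for m7, at 8.78 and 9.56, and for m4, at 11.02 and 11.87. Of the 12 genes listed, 10 had a probe set of their own and 2 of those lay under the floor.

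Among 7 tested genes known to respond to Notch in other settings, eyg and dpn rose. The Pax-family growth gene eyg read 9.01 and 8.87 in GFP and 9.89 and 9.90 with Delta, a rise of 0.95 ± 0.08 (limma adjusted p = 0.000687). dpn, which encodes a repressor related to the E(spl) proteins, read 9.58 and 9.28 in GFP and 10.26 and 10.27 with Delta (0.84 ± 0.13, adjusted p = 0.0119). The dpn call was lost without GFP replicate 2 or without either Delta replicate (up to 0.092). The growth ligand gene upd1 read 9.45 and 9.49 in GFP and 9.98 and 9.91 with Delta, without overlap, but its change of 0.47 ± 0.10 missed the threshold (adjusted p = 0.0578). The cell cycle gene CycE, the zinc finger gene klu, ct and Hey changed by between -0.15 and 0.14, and none was called. The median of the 7 was 0.14.

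The tested members of the signalling machinery were not called. Su(H), Nct, aph-1, Fur1 and mib1 had no probe set of their own and were not tested. Of 6 genes for processing and modification of the receptor (kuz, Psn, pen-2, O-fut1, fng and rumi) 0 passed, with changes of -0.13 to 0.21 and a median of 0.07, and 1 had an unadjusted p under 0.05 by limma. Of 6 genes of the nuclear complex and its corepressors (mam, H, gro, CtBP, Bx42 and nej) 0 passed, with 0 at an unadjusted p under 0.05 and a range of -0.10 to 0.09. Of 10 regulators of endocytosis and ubiquitination, among them neur, whose product prepares Delta for signalling, and numb, an inhibitor of Notch, 0 passed and 1 had an unadjusted p under 0.05, with a range of -0.05 to 0.21. In these 3 lists by limma, as in the 4 Bearded family genes outside the E(spl) complex (Brd, BobA, Tom and Ocho; 0 called, 0 at an unadjusted p under 0.05, range -0.20 to 0.19), the medians lay between -0.00 and 0.08. The plot by gene list shows these narrow ranges beside the E(spl) complex.

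**Figure D1:**
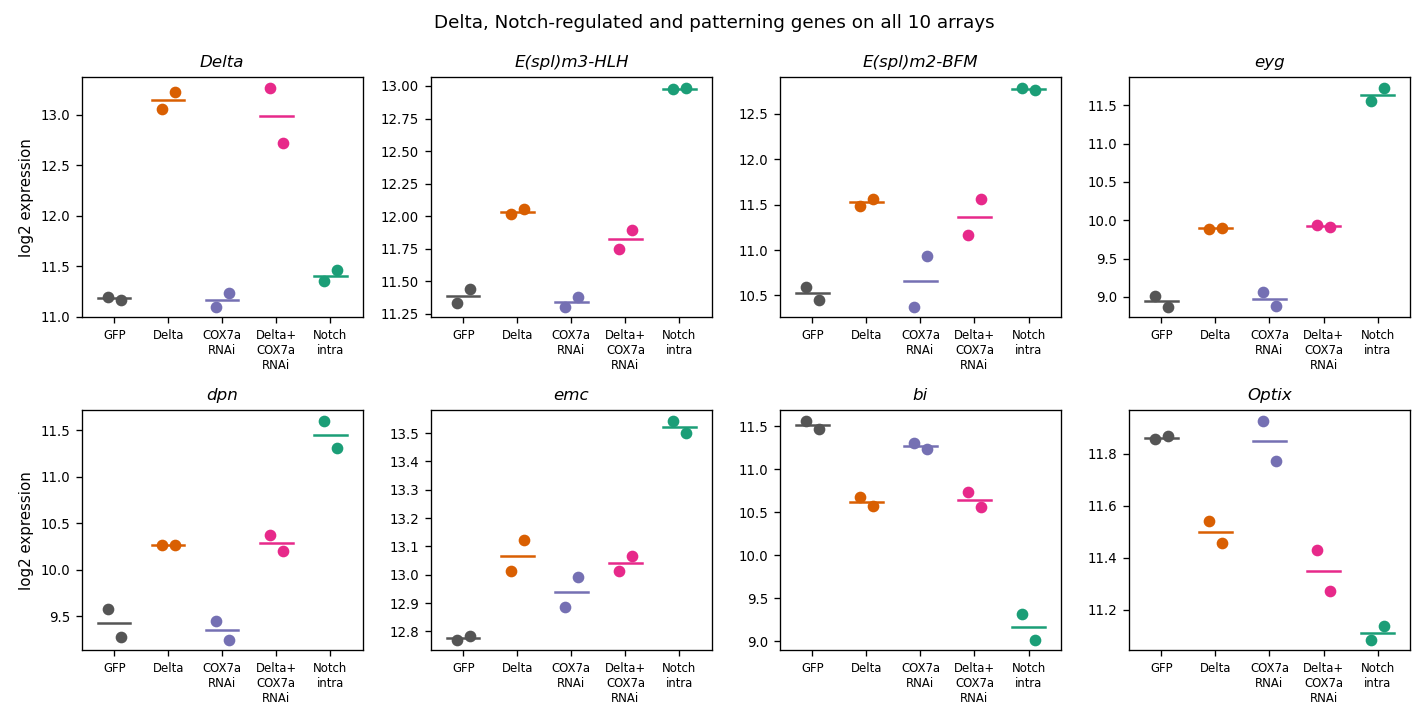
Log2 expression (y axis) of 8 genes on all 10 arrays, by genotype (x axis); each point is 1 array and each bar the mean of 2. The 4 arrays with UAS-Delta sit above GFP and COX7a RNAi for Delta, E(spl)m3-HLH, eyg and dpn and below them for bi and Optix, while Notch intra lies beyond Delta in each panel but that of Delta itself.

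Some genes that pattern the disc also changed. bi, which encodes the T-box factor Optomotor-blind, a target of Dpp signalling, read 11.56 and 11.46 in GFP and 10.67 and 10.57 with Delta. It fell by 0.89 on the log2 scale (SE 0.10, limma adjusted p = 0.00272). It was the 1 call among 9 tested genes of the Hedgehog and Dpp pathways, whose median was 0.01. Of the 11 dorsoventral genes tested, 2 fell and 0 rose. These were the Iroquois genes ara and mirr, which mark the dorsal eye. ara read 8.75 and 8.87 in GFP and 8.32 and 8.35 with Delta (-0.47 ± 0.06, adjusted p = 0.00706), and mirr 10.01 and 9.98 against 9.56 and 9.59 (-0.42 ± 0.07, adjusted p = 0.0178). A second mirr probe set fell by 0.84. For all 3 genes the Delta arrays lay below GFP without overlap. The ara call needed both GFP replicate 2 and Delta replicate 1 (up to 0.08 without one), and the mirr call was lost without any 1 of the 4 arrays (up to 0.144).

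Of 11 tested genes of the retinal determination list, eyg was the 1 that rose and Optix, a Six-family eye gene, the 1 that fell. Optix read 11.86 and 11.87 in GFP and 11.54 and 11.46 with Delta, a change of -0.36 ± 0.07 (limma adjusted p = 0.0306) that was lost without any 1 of the 4 arrays (up to 0.187). The 11 genes had a median of -0.05. emc, whose product binds proneural factors and keeps them from DNA, read 12.77 and 12.78 in GFP and 13.01 and 13.12 with Delta. Its rise of 0.29 ± 0.05 (adjusted p = 0.0214) was the 1 call among 8 proneural genes and partners, and was lost without either GFP replicate or Delta replicate 2 (up to 0.158). Of 11 genes of the furrow and photoreceptors 0 were called by limma and 2 had an unadjusted p under 0.05, with a median of 0.26. Of 12 antennal and head patterning genes 0 were called and 0 had an unadjusted p under 0.05, with a median of -0.04.

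Among signalling ligands bnl fell most. It encodes the FGF ligand Branchless, which guides tracheal branches, and read 8.63 and 8.64 in GFP and 6.71 and 6.83 with Delta, a 3.64-fold fall (-1.86 ± 0.13, limma adjusted p = 0.00024). Its other 2 probe sets, both dimmer, gave -0.33 and -0.64 and did not pass over all probe sets. bnl was the 1 call among 5 tested FGF ligand and receptor genes, whose median was 0.05. The EGFR list had a median of 0.18 over 10 genes and the JAK/STAT list 0.06 over 8; by limma 0 were called in either, with 4 and 2 at an unadjusted p under 0.05. The Wingless list (4 genes) and the Fat and Hippo list (11) had medians of -0.16 and -0.02, again with 0 called and with 2 and 1 at an unadjusted p under 0.05. Growth-related lists showed small values: by limma 0 of 16 cell cycle and replication genes were called (median 0.07, 4 at an unadjusted p under 0.05) and 0 of 15 ribosome biogenesis genes (median 0.08, 2 at an unadjusted p under 0.05).

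**Figure D2:**
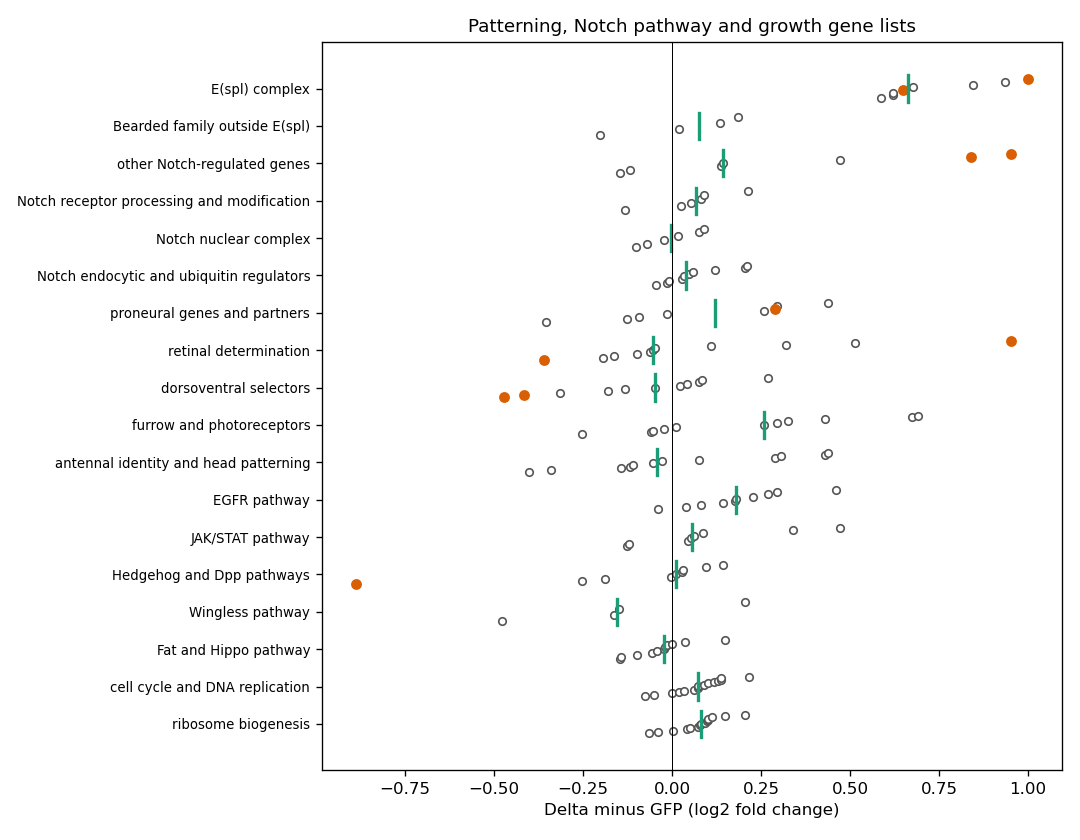
Delta minus GFP log2 fold change (x axis) of each tested gene in 18 lists (y axis); filled orange points were called by limma, open points were not, and green bars are list medians. The 8 E(spl) genes lie between 0.59 and 1.00, while most other lists centre near 0.

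The highest fold change belonged to sNPF, the gene of short neuropeptide F. It read 4.49 and 3.91 in GFP, both under the floor, and 7.84 and 8.43 with Delta, a change of 3.93 ± 0.26 (limma adjusted p = 0.000227). AstC, which encodes the neuropeptide allatostatin C, followed the same course, with 3.99 and 4.16 in GFP and 6.94 and 6.60 with Delta (2.70 ± 0.18, adjusted p = 0.000227). Both were near or under the floor on all 6 arrays of the other genotypes as well, at 3.13 to 4.75 for sNPF and 3.95 to 4.45 for AstC, so the 2 Delta arrays stood alone. The filter asked for 2 arrays above the floor, and without the Delta arrays neither gene would have been tested. The size of both changes is uncertain for the same reason. sNPF and AstC were the 2 calls among 20 neuropeptide and hormone genes tested, and the list's median was 0.05. Of 7 genes for processing and secretion of neuropeptides 0 were called by limma and 0 had an unadjusted p under 0.05, and of 4 neuronal markers 0 were called and 0 had an unadjusted p under 0.05.

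Several other large rises involved secreted or cuticle proteins. Cpr56F, a cuticle protein gene, read 7.05 and 7.02 in GFP and 10.47 and 10.57 with Delta (3.48 ± 0.30, limma adjusted p = 0.000707), an 11.2-fold rise. It was the 1 call among 44 tested Cpr genes, whose median was -0.10. CtsL2, named as a cathepsin L gene, rose from 4.62 and 4.84 to 7.70 and 7.90 (3.07 ± 0.17). Of 18 serpin genes, which encode protease inhibitors, Spn28B (2.49 ± 0.25) and Spn47C (1.21 ± 0.15) rose. Spn28B was under the floor in GFP, at 3.69 and 3.86, against 5.93 and 6.58 with Delta, so the size of its change is uncertain. Vajk2, which belongs to a family of cuticle-associated proteins, rose by 1.76 ± 0.21, and cysu, which encodes a heme peroxidase, by 2.01 ± 0.14. A second Vajk2 probe set, of similar signal in GFP (mean 6.44 against 6.39), rose by only 0.33 and did not pass over all probe sets. On each of these 6 genes the Delta arrays were above GFP without overlap. All kept their calls when any 1 of the 4 arrays was left out except Spn47C, which missed without GFP replicate 1 (0.0512).

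The other genes among the 15 highest were CG32373 (2.43 ± 0.17), CG4577 (2.01 ± 0.39), tej (1.81 ± 0.14), lama (1.53 ± 0.20), Liprin-gamma (1.37 ± 0.24), tut (1.33 ± 0.10) and CG31673 (1.31 ± 0.07). tut read 4.16 and 4.23 in GFP, under the floor, so the size of its change is uncertain. tej, whose product works in the germline piRNA pathway, read 5.42 and 5.46 in GFP and 7.12 and 7.38 with Delta. Liprin-gamma, named for a family of synaptic scaffold proteins, read 5.53 and 5.28 against 6.70 and 6.85. For both genes the 8 other arrays were all lower than the 2 Delta arrays. Limma calls were lost for CG4577 without GFP replicate 2 or either Delta replicate (up to 0.2), for lama without GFP replicate 2 or Delta replicate 1 (up to 0.0577) and for Liprin-gamma without any 1 of the 4 arrays (up to 0.165).

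The largest fall was that of Rnf11, which encodes a RING finger protein. It read 12.07 and 12.16 in GFP and 5.70 and 5.56 with Delta (-6.48 ± 0.46, limma adjusted p = 0.000266), and a second probe set fell by 5.10. The 6 arrays of the other genotypes lay at 5.34 to 7.31, close to Delta. GFP was the genotype that stood apart, although the Delta discs carried UAS-GFP as well, and whether a difference between the fly stocks accounts for this was not tested. CG6701 read 9.42 and 9.48 in GFP and 6.06 and 6.16 with Delta (-3.34 ± 0.14), and MFS15, a transporter gene of the major facilitator superfamily, 7.29 and 7.40 against 5.53 and 5.39 (-1.88 ± 0.08). For these 2 genes the Delta arrays were the lowest of all 10.

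CG13056 (-2.75 ± 0.13), CG13041 (-1.48 ± 0.29) and the non-coding gene CR44101 (-2.43 ± 0.33) fell as well, as did CG32793 (-1.21 ± 0.21), CG32572 (-1.70 ± 0.14) and CG6293 (-1.42 ± 0.15). CR44101, CG32793 and CG32572 had Delta means under the floor. spz5, a relative of the Toll ligand gene spz, fell from 8.13 and 8.26 to 6.97 and 6.73 (-1.34 ± 0.16). Jhbp5, named for juvenile hormone binding proteins, fell from 9.18 and 9.26 to 7.70 and 8.01 (-1.37 ± 0.12), and the esterase gene alpha-Est10 from 7.83 and 7.91 to 6.38 and 5.94 (-1.71 ± 0.14). These 3 genes stood highest in GFP among all 5 genotypes. Limma calls were lost for CR44101 (up to 0.0657), CG13041 (up to 0.228) and CG32793 (up to 0.174) without any 1 of the 4 arrays.

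Metabolic and hormone-response genes contributed a few calls. Pepck1, which encodes phosphoenolpyruvate carboxykinase of gluconeogenesis, read 10.76 and 11.11 in GFP and 9.20 and 9.05 with Delta (-1.82 ± 0.13, limma adjusted p = 0.000321), the 1 call among 12 genes of sugar metabolism, whose median was 0.01. GstE5, a glutathione transferase gene, read 7.36 and 7.32 against 6.09 and 6.27 (-1.16 ± 0.08), the 1 call among 32 Gst genes. Sod3, the extracellular superoxide dismutase, fell by 0.54 (SE 0.06), the 1 call among 10 antioxidant genes. A second Sod3 probe set, with a GFP mean of 8.69, changed by -0.14 and did not pass over all probe sets. On Pepck1 and GstE5 both COX7a RNAi genotypes were higher than GFP, with COX7a RNAi alone at 12.22 and 12.46 for Pepck1 and 8.27 and 8.23 for GstE5. Of 50 tested cytochrome P450 genes and 59 genes of the respiratory chain and ATP synthase 0 were called by limma, with 9 and 2 at an unadjusted p under 0.05 and medians of -0.08 and 0.04.

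ImpE2, an ecdysone-inducible gene, read 7.95 and 7.91 in GFP and 6.28 and 6.50 with Delta (-1.54 ± 0.22, limma adjusted p = 0.00849), and its other 6 arrays read 5.67 to 6.43. ImpL2, a secreted inhibitor of insulin-like signalling, fell by 0.59 (SE 0.12, adjusted p = 0.0477). The ecdysone list, which holds both genes, had 2 calls among 13. ImpL2 was also the 1 call among 7 tested genes of the insulin and TOR list. Of 8 amino acid and sugar transporter genes path rose (0.82 ± 0.12) and mnd fell (-0.42 ± 0.09, adjusted p = 0.0487). Among stress and death genes 0 of 14 in the JNK and wound list, 0 of 4 in the apoptosis list and 0 of 4 in the hypoxia list were called by limma, with 2, 1 and 0 at an unadjusted p under 0.05. The ImpE2 call depended on both GFP replicates and Delta replicate 1 (up to 0.0796 without one of them) and the path call without GFP replicate 1 or Delta replicate 1 (up to 0.104). The calls of ImpL2 (up to 0.256) and mnd (up to 0.281) were lost without any 1 of the 4 arrays.

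Markers of other tissues that can cling to dissected discs were not called. By limma 0 of 6 glial, 7 muscle, 5 tracheal, 4 hemocyte, 3 fat body, 3 salivary gland and 7 ring gland genes tested passed, with 1 tracheal and 1 salivary gland gene at an unadjusted p under 0.05. Summed glial signal was 12.44 and 12.25 log2 units in GFP and 12.32 and 12.31 with Delta, and summed neuronal signal 10.22 and 10.20 against 10.15 and 10.27. The glial factor gcm, the neuronal genes para and onecut, the hemocyte genes srp, He and eater, the glue genes Sgs3, Sgs4, Sgs7 and ng1 and the fat body gene apolpp were under the floor on all 4 arrays. Ring gland signal varied most, at 8.48 and 10.48 in GFP and 9.61 and 10.03 with Delta. The steroid synthesis gene spok of that list read 3.83 and 9.35 in GFP. Summed muscle signal was 11.62 and 11.35 in GFP and 12.08 and 11.23 with Delta. The part of these tissues in the changes was not tested.

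The discs with COX7a RNAi gave the same transgene difference on 4 arrays, none of which was compared above. Any other difference that goes with the ey-Gal4, UAS-Delta chromosome would return there too, and this was not tested. The SE of a gene was pooled over all 10 arrays and is the same in both comparisons. A gene of small spread is therefore favoured in both, and the 2 sets of calls are not independent. Delta with COX7a RNAi was set against COX7a RNAi alone, and 78 genes were called, 0.896% of those tested (34 rose, 0.391%, and 44 fell, 0.506%). Of the 207 genes, 26 were called there in the same direction, 12 higher and 14 lower, and 0 in the opposite direction. These 26 were 12.6% of the calls against GFP and 33.3% of the calls with COX7a RNAi. With each comparison fitted on its own arrays alone, 6 genes were called in both. Of the 117 genes that rose with Delta alone, 89 had a change above 0 in this background, against 53.2% of all genes, and of the 90 that fell 67 had one below 0. The median changes there were 0.11 and -0.15, smaller than the 0.61 and -0.70 seen against GFP, where the genes were chosen. Without 1 array, the genes called in both comparisons numbered from 11 (without GFP replicate 2) to 32 (without COX7a RNAi replicate 2).

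The genes called in both included Delta (1.83 ± 0.15 with COX7a RNAi, limma adjusted p = 0.00162), Cpr56F (4.77 ± 0.30), cysu (1.31 ± 0.14), CG31673 (1.30 ± 0.07), CG9008 (1.24 ± 0.21), eyg (0.96 ± 0.08), dpn (0.94 ± 0.13) and E(spl)m3-HLH (0.48 ± 0.06) on the higher side. eyg read 9.07 and 8.88 with COX7a RNAi and 9.94 and 9.92 with Delta added, nearly the levels of the GFP and Delta discs. On the lower side were CG13056 (-2.43 ± 0.13), CR44101 (-2.31 ± 0.33), bnl (-1.08 ± 0.13), CG4998 (-1.07 ± 0.17), bi (-0.63 ± 0.10) and Optix (-0.50 ± 0.07). bnl read 8.64 and 8.92 with COX7a RNAi and 7.80 and 7.59 with Delta added, still without overlap. The E(spl) median was 0.39 in this background, with 1 of 8 called.

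Some of these calls rested on single arrays of the COX7a RNAi pair of genotypes. E(spl)m3-HLH was lost without COX7a RNAi replicate 1 (limma adjusted p up to 0.0573) and bnl without Delta with COX7a RNAi replicate 2 (up to 0.0517). Optix and CG9008 were lost without COX7a RNAi replicate 1 or Delta with COX7a RNAi replicate 2 (up to 0.0676 and 0.16). bi was lost without either COX7a RNAi replicate or Delta with COX7a RNAi replicate 2 (up to 0.132). dpn was lost without COX7a RNAi replicate 2 or either Delta with COX7a RNAi replicate (up to 0.0707), CR44101 without either of the latter (up to 0.102), and CG4998 without any of these 4 arrays (up to 0.135). Against GFP, CG9008 was lost without any 1 of the 4 arrays (up to 0.157) and CG4998 without either GFP replicate (up to 0.0995). Delta, Cpr56F, cysu, CG31673, CG13056 and eyg were kept in every such fit of both comparisons.

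**Figure D3:**
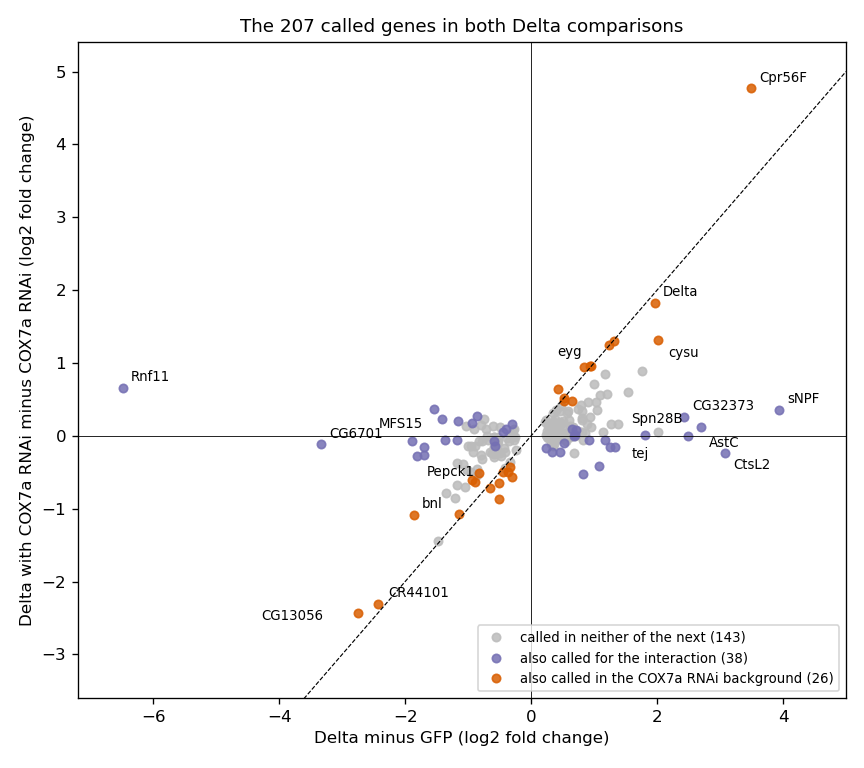
Log2 fold change of the 207 called genes for Delta minus GFP (x axis) and for Delta with COX7a RNAi minus COX7a RNAi (y axis), with the line of equal change dashed. The 26 genes called in both (orange) lie along the line, and the 38 called for the interaction (purple), such as Rnf11, sNPF and CG6701, lie near 0 on the y axis.

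The difference between the 2 Delta effects was tested as an interaction, and 50 genes were called (0.575%). Of the 207 genes 38 were among them, 20 that rose and 18 that fell against GFP. Since the interaction uses the Delta and GFP arrays that chose these genes, it favours larger changes there, and all 38 had the smaller change with COX7a RNAi. For 19 of the 38 the GFP arrays lay beyond all 8 others, so COX7a RNAi alone already stood away from GFP. sNPF changed by 0.36 ± 0.26 with COX7a RNAi (interaction -3.57 ± 0.37, limma adjusted p = 0.00657), AstC by 0.12 ± 0.18 (interaction -2.58 ± 0.25, adjusted p = 0.00505) and CtsL2 by -0.23 ± 0.17 (interaction -3.31 ± 0.24, adjusted p = 0.0013). sNPF read 4.30 and 4.75 with both transgenes and 4.32 and 4.01 with COX7a RNAi alone, so the 2 groups overlapped. The calls of these 3 genes, of CG6701 (3.22 ± 0.20, adjusted p = 0.00107) and of MFS15 (1.81 ± 0.12, adjusted p = 0.00107) were kept when any 1 of the 8 arrays was left out, and 13 of the 38 were.

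The other genotypes showed which arrays a call rested on. For 100 of the 207 genes (48.3%) the GFP arrays lay beyond all 8 other arrays, against 10.3% of all genes. For 88 (42.5%) the 4 arrays with UAS-Delta lay beyond the GFP and COX7a RNAi arrays, against 7.29% of all genes. For 66 (31.9%), a pattern added after the values were seen, the 2 Delta arrays lay beyond the other 8, against 6.61%. These patterns overlap, and each share exceeds that of all genes in part because a called gene has Delta and GFP apart to begin with. Rnf11, the DNA repair gene gkt and the RNA-binding protein gene Hrb87F belonged to the first pattern. gkt read 9.91 and 9.96 in GFP and 8.74 to 8.97 on all other arrays, and Hrb87F 12.36 and 12.35 in GFP and 12.87 to 13.05 elsewhere. Like spd-2, a centriole gene drawn with them, gkt and Hrb87F were picked after their values were seen.

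**Figure D4:**
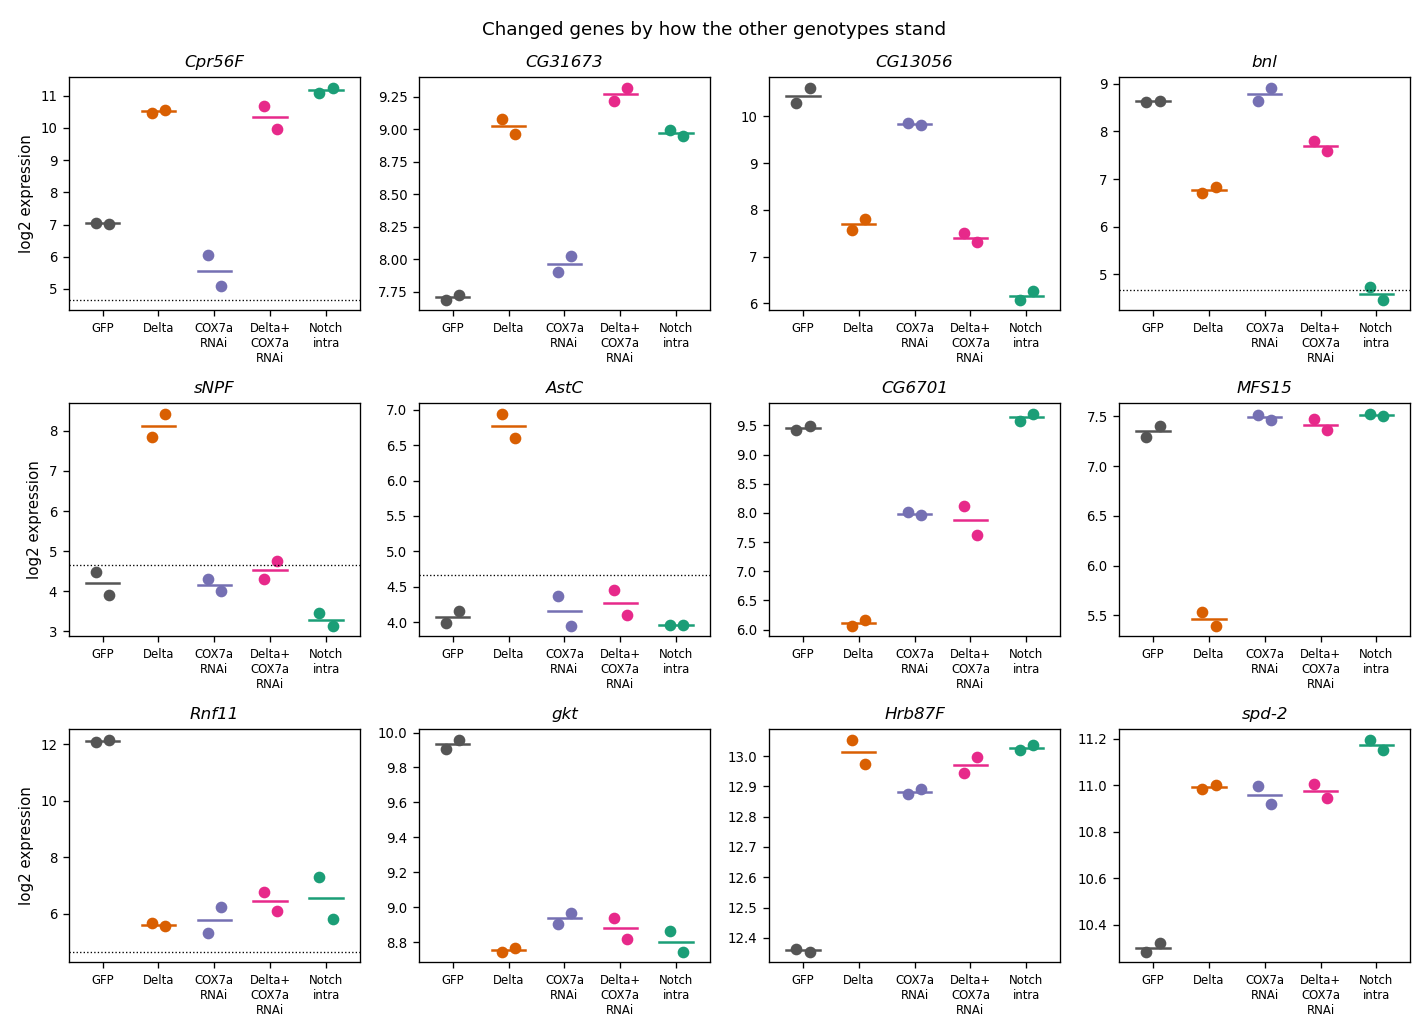
Log2 expression (y axis) of 12 called genes on all 10 arrays, by genotype (x axis); points are arrays, bars means of 2, and the dotted line, where in range, is the floor. The top row shows genes in which the 4 UAS-Delta arrays moved together, the middle row genes in which the 2 Delta arrays stand apart, and the bottom row genes in which the 2 GFP arrays stand apart.

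Notch intra, which acts downstream of the ligand, was tested against Delta directly. Of the 207 genes 89 differed between the 2 genotypes, against 9.55% of all genes. Of these, 34 lay further from GFP with Notch intra than with Delta (15 that rose and 19 that fell), and 55 lay on the side of GFP or beyond it. The test uses the Delta arrays that also chose the genes, which favours the second kind. Without 1 Delta or Notch intra array the 89 became 58 to 62.

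Notch-regulated and patterning genes were of the first kind. Notch intra minus Delta was 0.94 for E(spl)m3-HLH (limma adjusted p = 4.95e-05), 1.25 for E(spl)m2-BFM (adjusted p = 0.00348), 1.74 for eyg, 1.19 for dpn and 0.45 for emc. eyg read 11.55 and 11.72 with Notch intra, above all 8 other arrays. For bnl the difference was -2.18, with Notch intra readings of 4.72 and 4.46 near the floor, and for bi it was -1.45. The dorsal genes ara and mirr gave -2.10 and -0.69, CG13056 -1.53, CG4998 -1.70 and Optix -0.39. Each of these 12 genes thus moved further in the direction it had taken with Delta. The Optix call was lost without Delta replicate 1 or Notch intra replicate 1 (up to 0.0822), and the other 11 were kept without any 1 of the 4 arrays.

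Genes of the second kind included those in which Delta stood alone. Notch intra minus Delta was -4.84 for sNPF, -2.81 for AstC and -2.31 for Spn28B. With Notch intra these 3 genes read 3.13 to 4.28, under the floor as in GFP. The difference was 3.53 for CG6701, 2.05 for MFS15 and 1.57 for Pepck1, and these too came back near their GFP levels. krimp, a piRNA pathway gene that fell with Delta (-0.61 ± 0.12, limma adjusted p = 0.0339), went past GFP: it read 6.47 on both GFP arrays, 5.83 and 5.90 with Delta and 7.89 and 8.07 with Notch intra. GstE5 gave 0.83, CG7231 -1.45 and Spn47C -1.22. These calls against Delta were kept without any 1 of the 4 arrays, but the fall of krimp against GFP was lost without any 1 of its 4 (up to 0.208). CtsL2 read 7.40 and 7.47 with Notch intra and Cpr56F 11.09 and 11.25, and their differences from Delta, -0.36 ± 0.17 and 0.65 ± 0.30, were not called.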

How the data were processed

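Expression was measured on Affymetrix 3′ arrays from 50 ng of total RNA per sample, per the labels' protocols. The deposited table holds log2 values. RMA, Affymetrix Expression Console and Transcriptome Analysis Console 3.0.0.466 are named in the submitters' processing notes, without an order. Of 18952 probe sets, 183 controls were left out; 13647 had 1 gene symbol in the platform annotation, 402 several and 4720 none, and only single-gene probe sets were used. The probe set with the highest mean stood for a gene. Genes needed 2 arrays above the 40th percentile of all values, which removed 3280. All 10 arrays were fitted with 1 mean per genotype in limma 3.58.1 (R 4.3.3, eBayes with intensity trend; 5 residual degrees of freedom, 3.31 prior), and p-values are two-sided. The number of arrays limits the precision. Scripts were tested on simulated data.

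The members, lists and named genes were chosen with earlier results of these data known. Named genes were Delta, the 15 highest and 15 lowest non-overlapping calls, all measured Notch pathway genes, up to 3 calls per other list (or the gene with the largest change where none was called), and up to 10 each called for the interaction, in both Delta comparisons, or against the direction of Notch intra. Others were picked after values were seen: gkt, Hrb87F and spd-2 in the results, and all genes of the closing paragraphs that the rule does not take. Alternatives were other probe set rules, floors, normalizations, variance models, a replicate block and leaving out each array.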

Additional observations from a re-analysis of the deposited data

Results flagged for a closer look

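The Delta effect differed between the GFP and the COX7a RNAi background, by the limma interaction test, for 26 genes named here. Values are the log2 change with COX7a RNAi minus that against GFP. It was below 0 for sNPF (-3.57), CtsL2 (-3.31), AstC (-2.58), Spn28B (-2.49), CG32373 (-2.17), tej (-1.80), tut (-1.48), CG7231 (-1.41), path (-1.34), otk (-0.68), spd-2 (-0.67), Mps1 (-0.63) and Hrb87F (-0.57), which had all risen against GFP. It was above 0 for Rnf11 (7.15), CG6701 (3.22), ImpE2 (1.92), MFS15 (1.81), CG6293 (1.66), CG32572 (1.54), Pepck1 (1.53), alpha-Est10 (1.44), GstE5 (1.36), Jhbp5 (1.31), gkt (1.12), ena (0.51) and hts (0.51), which had fallen against GFP. For Rnf11, CtsL2, CG32373, ImpE2, CG6293, CG32572, tut, alpha-Est10, Jhbp5, gkt, spd-2, Mps1 and Hrb87F the GFP arrays lay beyond all 8 others, so COX7a RNAi alone already stood away from GFP.

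The calls of sNPF, CtsL2, AstC, CG32373, tut, CG7231, spd-2, Hrb87F, Rnf11, CG6701, MFS15, GstE5 and gkt were kept without any 1 of the 8 arrays. tej was lost without GFP replicate 1 (0.0586), Jhbp5 without either GFP replicate (up to 0.073) and Pepck1 without Delta replicate 2 or Delta with COX7a RNAi replicate 1 (up to 0.0565). hts was lost without either GFP replicate or Delta replicate 1 (up to 0.0928), path without Delta replicate 1 or either Delta with COX7a RNAi replicate (up to 0.069) and CG6293 without GFP replicate 1, either Delta replicate or Delta with COX7a RNAi replicate 1 (up to 0.0739). CG32572 (up to 0.0615), alpha-Est10 (up to 0.109), Spn28B (up to 0.12), ImpE2 (up to 0.188), Mps1 (up to 0.147), otk (up to 0.156) and ena (up to 0.172) were lost in 5 or more of the 8 fits.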

How the results depend on the processing

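With Delta against GFP, all 207 called genes kept their sign in every setting in which they were tested. Most settings could not have changed a sign. Other variance models and gene filters leave the change itself as it was. The Delta and GFP arrays of all 207 genes did not overlap, so leaving out 1 array cannot reverse a change. The count of 207 was 366 (198 higher, 168 lower) when the 4 arrays were fitted alone and 84 (50 and 34) with an ordinary linear model. It ran from 177 to 209 under the other normalizations, floors, probe set rules and variance models, and centring arrays on their median gave 130 higher and 79 lower against 117 and 90. Without 1 array it ran from 74 to 110, with 43 to 68 higher and 31 to 42 lower. With COX7a RNAi the 78 calls became 10 with those arrays alone and 4 with the ordinary model, and 41 to 105 without 1 array. The interaction's 50 calls became 13 with the ordinary model and 16 to 41 without 1 array. The 26 genes called in both became 6 with the compared arrays alone, 3 with the ordinary model and 11 to 32 without 1 array. The cause of these differences was not tested, beyond the fewer samples in fits on fewer arrays. Samples of 2 genotypes shared only a replicate number: the deviations of same-numbered arrays correlated at -0.22 to 0.38 across genes (0.1239 for GFP and Delta). With a replicate block 192 genes were called (109 higher, 83 lower), 69 with COX7a RNAi, 35 for the interaction and 25 in both, and among the genes named mnd (0.0552), ImpL2 (0.0539), krimp (0.0553) and Eogt (0.0505) missed. Of 39 further probe sets of called genes, 26 had a group mean above the floor and 22 of those had the same sign. Only 7 of the 26 were called in a fit over all probe sets.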

Other observations

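Some further genes with known roles near Notch or in epithelia changed with Delta, all picked after their values were seen. bib, whose channel-like product takes part in Notch-dependent choice between neural and epidermal fate, read 9.82 and 9.55 in GFP and 10.76 and 10.81 with Delta and rose by 1.10 ± 0.16. All 6 arrays of the other genotypes were also above GFP, at 10.22 to 11.42. Eogt, whose enzyme adds sugars to EGF repeats such as those of Notch and Delta, rose by 0.27 ± 0.05, and the 2 Delta arrays (10.08 and 10.12) were the highest of all 10. The Eogt call was lost with a second quantile normalization and with a replicate block (0.0505). The receptor-like gene otk rose by 0.45 ± 0.07 while its paralog and near neighbour otk2 fell by 0.71 (SE 0.13). otk read 10.10 and 10.01 with Delta against 8.93 to 9.69 on the other arrays. The actin regulator genes ena (-0.58 ± 0.06), hts (-0.45 ± 0.04) and jbug (-0.29 ± 0.05) fell. The other jbug probe set changed by -0.03 and the other 4 of hts by -0.19 to 0.02, and the jbug and hts calls were lost when a gene's probe sets were averaged. Limma calls were lost for Eogt (up to 0.221), otk (up to 0.132), otk2 (up to 0.179) and jbug (up to 0.246) without any 1 of the 4 arrays and for bib without GFP replicate 2 or either Delta replicate (up to 0.079).

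Of genes with roles in cell division 5, picked after their values were seen, rose, while 0 of 16 genes in the cell cycle and replication list were called by limma (median 0.07, 4 at an unadjusted p under 0.05). spd-2 of the centriole rose by 0.69 ± 0.04, the spindle checkpoint kinase gene Mps1 by 0.71 ± 0.07, the primase gene Prim2 by 0.47 ± 0.05, Orc4 of the origin recognition complex by 0.46 ± 0.06 and borr of the chromosomal passenger complex by 0.35 ± 0.05. For all 5 the GFP arrays were the lowest of all 10. spd-2 read 10.28 and 10.32 in GFP and 10.92 to 11.19 on every other array. Limma calls were lost for Orc4 without either GFP replicate or Delta replicate 2 (up to 0.0684) and for borr without GFP replicate 1 or either Delta replicate (up to 0.0759).

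A list of germline and piRNA pathway genes was drawn up after tej and tut were seen among the highest changes, so its count is a description of a chosen list. Of 25 tested members 7 rose and 2 fell, with a median of 0.21, beside 1.34% and 1.03% of all genes and a median of 0.02. The rises were those of tej, tut, Taf12L (0.94 ± 0.17), mtrm (0.83 ± 0.13), SoYb (0.61 ± 0.10), orb (0.59 ± 0.10) and mael (0.54 ± 0.09), and krimp and c(2)M (-0.51 ± 0.09) fell. The second Taf12L probe set changed by -0.16, and the Taf12L call was lost when its probe sets were averaged. All 9 were of low to middle signal, with GFP values of 4.16 to 6.88. Core members of the pathway such as piwi (0.05 ± 0.08), armi (-0.00 ± 0.05) and AGO3 (0.01 ± 0.15) were not called. In Delta with COX7a RNAi against COX7a RNAi alone, 0 rose and 1, c(2)M, fell. For tut, mael and Taf12L the GFP arrays lay below all other arrays, so COX7a RNAi alone already stood away from GFP. This did not hold for tej, mtrm, SoYb and orb. krimp read 5.60 and 5.62 with COX7a RNAi alone, also below GFP. Except for tej and tut each of these calls was lost without 1 or more of the 4 arrays, with a limma adjusted p of up to 0.208.

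Of 1449 tested genes on the X chromosome 10 were called (4 rose and 6 fell, 0.69%), while 2.17% to 3.02% were called on the arms 2L, 2R, 3L and 3R. Of the 26 genes called in both Delta comparisons, 9 lie on 2L, 5 on 2R, 3 on 3L, 6 on 3R and 2 on X, and 1 had no arm given. Tested genes numbered 1554 on 2L, 1788 on 2R, 1711 on 3L and 2116 on 3R. Among the genes on 2L called in both, the neighbours CG9008 and Eato changed in opposite directions (1.24 and -0.65 against GFP), as did the neighbours LSm7 (0.52) and ChLD3 (-0.94). With Notch intra, whose discs carry no UAS-Delta, the changes against GFP were 0.06, -0.20, 0.04 and -0.51. Of these the fall of ChLD3 was called (limma adjusted p = 0.00932) and the others were not. Which arm carries the UAS-Delta insertion is not given in the sources used here, and linkage was not tested. The CG9008 and LSm7 calls against GFP were lost without any 1 of the 4 arrays (up to 0.157 and 0.144).

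Of 2301 tested probe sets with several gene symbols or none, 32 were called for Delta against GFP in a limma fit over these probe sets alone. In the main fit 207 of 8702 genes were called.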
